A study of Mus musculus with 48 samples.

Results

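CD8 T cells outside the cell cycle were selected on measured values from single cells of mouse GL261 glioblastoma, sequenced for their RNA. RNA molecules were counted by unique molecular identifiers (UMIs), and a cell needed at least 500 detected genes, at least 2 UMIs of the CD3 chains Cd3e, Cd3d and Cd3g together and at least 1 UMI of the CD8 chains Cd8a and Cd8b1 together. It carried no UMI of Cd4, of the regulatory T cell factor Foxp3 or of the macrophage gene Ms4a7, and at most 1 UMI of the proliferation genes Mki67 and Top2a together. Of the 8726 cells with at least 500 genes in the whole-tumor mix, 623 were members, and the series holds 14896 deposited cells in all.

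The study asked what P-selectin does in glioblastoma, and compared tumors of GL261 cells that carried a negative control short hairpin RNA (shNC) with tumors of GL261 cells that carried one against P-selectin (shSELP, the P-Selectin knockdown of the labels). All tumors grew in the brains of C57BL/6 mice, which the methods give as 6 weeks old and male at implantation. Each group gave the mix 2 libraries, named shNC 1, shNC 2, shSELP 1 and shSELP 2, of 8 sequencing entries each, and the labels place them at day 16 after inoculation while the methods name another day. CD11b+ cells, the remaining CD45+ cells and cancer cells were separated with magnetic beads and mixed in equal amounts, so a share of cells describes the loaded mixture and not the tumor. The methods describe cell suspensions made from pools of 3 brains per group. No label says whether each library had its own animals, so the 2 libraries of a group may be loadings of a shared pool.

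CD8 T cells recognise peptides on MHC class I through the T cell receptor and its CD3 chains, and kill target cells with perforin and granzymes stored in cytotoxic granules. Repeated stimulation in tumors is known to raise inhibitory receptors such as PD-1 and LAG-3. P-selectin is an adhesion molecule of platelets and endothelium, and its best known ligand on leukocytes, PSGL-1 (gene Selplg), is made by T cells and needs sugar and sulfate modification to bind selectins.

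Selp, the gene for P-selectin and the target of the hairpin, was checked first. Over all cells it had 17, 25, 21 and 21 UMIs in shNC 1, shNC 2, shSELP 1 and shSELP 2, or 0.743, 1.11, 1.21 and 0.823 CPM (the standard count unit that scales the UMIs of each library's cells to the same total), and the groups overlapped. In cells with no UMI of the leukocyte gene Ptprc, which hold the tumor cells among others, it had 11, 13, 0 and 5 UMIs, or 1.85, 2.68, 0 and 1.69 CPM, so both shNC libraries lay above both shSELP libraries by few counts. That population was chosen after the data were seen. The CD8 T cells held 1 Selp UMI in all, in shNC 2. At this depth Selp did not settle which library carried the knockdown, so the groups follow the labels alone.

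All values in groups of 4 follow the order shNC 1, shNC 2, shSELP 1 and shSELP 2. The groups are said not to overlap for a gene when both libraries of either group lie above both of the other. That held for 40.6% of the 6929 genes tested between the groups, so it describes a gene and is no test. The libraries held 156, 153, 208 and 106 members, whose summed depth was 1013808, 989338, 1125722 and 876112 UMIs. A member had a median of 5868.5, 5493, 4806 and 7622.5 UMIs and of 1870.5, 1877, 1678.5 and 2246 genes, so cells of shSELP 2 were the deepest and those of shSELP 1 the shallowest. At these depths 3 UMIs, the upper limit that a count of 0 allows, stand for 2.96, 3.03, 2.66 and 3.42 CPM. In the mix 10 cells shared 5 barcodes between libraries, and 0 of them were members.

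One library stood apart in part of the results. Cells of shNC 1 had 1536, 190.0, 237 and 252 CPM of the chemokine gene Xcl1 and 179.5, 19.2, 2.66 and 37.7 CPM of the growth factor gene Areg, so shNC 1 was far above the other 3 libraries in both. The cytokine gene Ifng had 958, 282, 364 and 359.5 CPM and the chemokine gene Ccl3 748, 88.9, 159 and 286 CPM, again with shNC 1 above all others. Comparisons between the groups are therefore also given without each library.

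The chain genes that chose the cells are a description. The members had 792, 714, 987 and 875 CPM of Cd3e, which signals for the T cell receptor. Cd8a stood at 1136, 899, 1179.7 and 1208 CPM and its partner chain Cd8b1 at 1152, 945, 1513 and 1323 CPM. A UMI of Cd8a was found in 592 members, of Cd8b1 in 599 and of both in 568, so most cells carried both chains of the CD8 coreceptor. At the lower edge of the CD3 condition, 2 members had exactly 2 CD3 UMIs, and 5 cells stayed outside only because they had 1. At the CD8 condition, 28 members had a single CD8 UMI, and 226 cells stayed outside only because they had none. At the proliferation condition, 467 members had no UMI of Mki67 or Top2a and 156 had 1, while 50 cells stayed outside only because they had 2 and 162 because they had 3 or more. Cd4 alone kept out 22 cells, Foxp3 alone 8 and Ms4a7 alone 25.

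Gzmb, Nkg7 and Klrd1, markers of the label that the selection did not use, are also a description. They were named with earlier results of these data known, and none differed past the threshold from NK cells in the comparison below. Gzmb encodes granzyme B, the protease that starts cell death in a target, and it stood at 5021, 4682, 4815 and 4176 CPM, with a mean of 4673 ± 359 (SD, n = 4 libraries) and rank 34 among all genes of the members. Nkg7, a membrane protein of cytotoxic granules, had 3086, 2986, 3662 and 3280.4 CPM. Klrd1, the CD94 chain of lectin receptors for non-classical MHC class I, had 983, 888, 918 and 887 CPM. All 4 libraries were close for these 3 genes and the groups overlapped for Gzmb and Klrd1. For Nkg7 both shSELP libraries were above both shNC libraries, as for 19.7% of all genes tested.

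Shares of cells with a UMI were taken after each cell had been thinned, by random removal, to 2000 UMIs, which left 599 of 623 members. Gzmb was then found in 78.8% of members (exact 95% binomial interval 75.3% to 82.0%) against 83.6% before thinning, and in 0.651% of macrophage-like cells, defined by 2 or more Ms4a7 UMIs and no CD3 UMI. The median depth before thinning was 5587 UMIs in members and 14467.5 UMIs in these 2334 cells, which should lack T cell genes. Nkg7 was found in 96.2% of members against 0.477% of macrophage-like cells, and Klrd1 in 68.9% against 0.130%, so the markers lay far above the share found in cells that should lack them. Before thinning Nkg7 had 98.6% and Klrd1 84.8% in members. Intervals and limits cover counting error only.

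**Figure D1:**
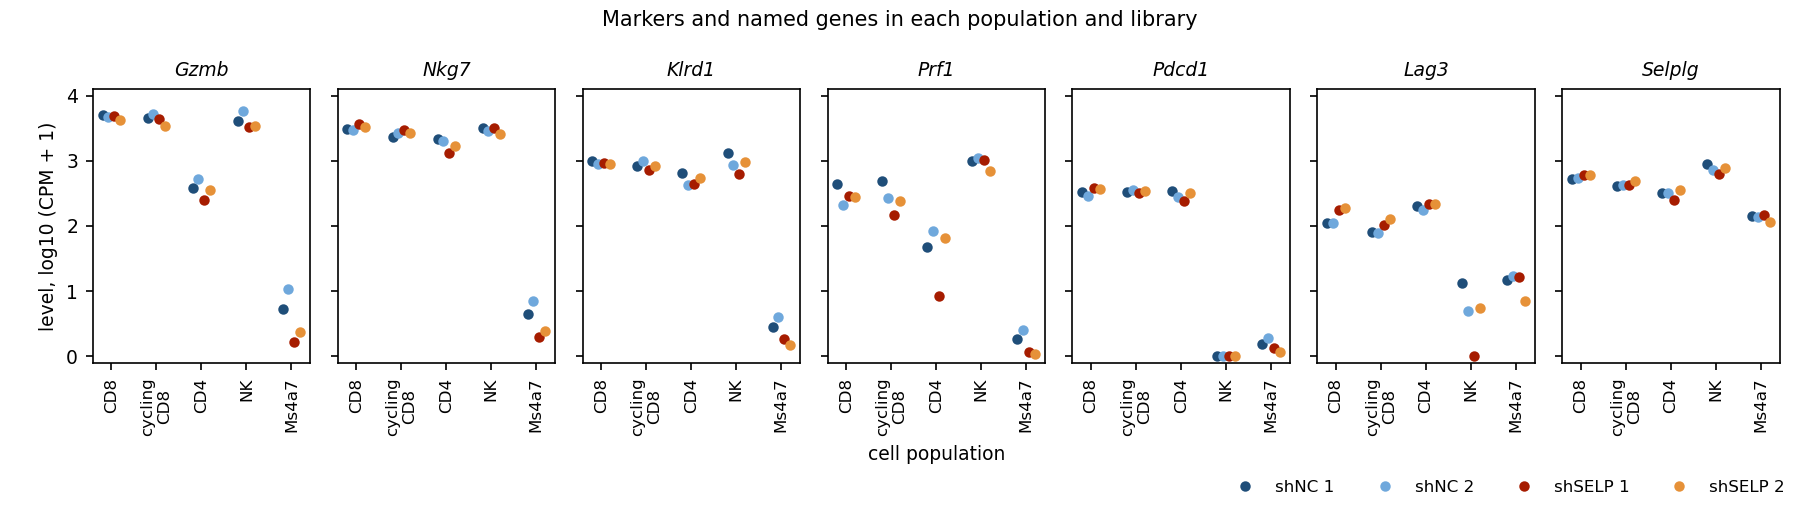
Levels of 7 genes, as log10 of CPM plus 1, in each of the 4 libraries (points) for CD8 T cells, cycling CD8 T cells, CD4 T cells, NK cells and Ms4a7 macrophage-like cells. Gzmb lies between 4176 and 5021 CPM in the CD8 T cells, and Pdcd1 has no UMI in the NK cells.

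The cytotoxic program went beyond the markers. Perforin (Prf1), which opens the target membrane, had 437, 209, 287 and 279 CPM and was found in 30.6% of thinned members against 0.391% of macrophage-like cells. Granzyme A (Gzma) had 1702, 2146, 2874 and 3508 CPM but was found in 24.9% of thinned members, so its high level came from a minority of the cells. Granzyme K (Gzmk), typical of early memory-like effectors, had 117, 169.8, 102 and 168 CPM. Granzyme C (Gzmc) had 245, 791, 64.8 and 75.3 CPM and granzyme F (Gzmf) 235, 983, 530.3 and 203 CPM, with shNC 2 the highest in both. The cysteine protease gene Ctsw had 483, 464, 652 and 717 CPM, and Serpinb9, which shields the killer cell from its own granzyme B, had 439, 363, 294 and 349 CPM. Over the 19 genes of the cytotoxic granule list the summed level was 15215, 16282, 16646 and 16292 CPM, and the libraries lay close together.

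The T cell receptor constant chains had 959, 947, 1099 and 1093 CPM for Trac, 1572, 2083, 2185 and 2142 CPM for Trbc2 and 1198, 972, 330.5 and 463 CPM for Trbc1, and for Trbc1 both shNC libraries were far above both shSELP libraries. The inhibitory receptors PD-1 (Pdcd1) and LAG-3 (Lag3) had 327, 290.1, 385 and 372 CPM and 111, 110.2, 175 and 186 CPM. Both shSELP libraries lay above both shNC libraries, as for 19.7% of all genes tested. Neither gene passed the edgeR test of the groups given below (adjusted p 0.552 and 0.145). Pdcd1 was found in 45.2% of thinned members and Lag3 in 22.9%, against 0.0868% and 2.21% of macrophage-like cells. Before thinning the members had 72.2% and 45.7%. Ctla4, which competes with CD28 for its ligands, was the most abundant gene of the inhibitory list with 461, 437, 551 and 563 CPM. Among costimulatory receptors, 4-1BB (Tnfrsf9) had 828, 569, 438 and 498 CPM, ICOS (Icos) 372, 454, 479 and 474 CPM and CD28 (Cd28) 196, 286, 209.6 and 248 CPM. The groups did not overlap for Tnfrsf9 or Icos, as for 40.6% of all genes tested. Neither passed the edgeR test of the groups given below (adjusted p 0.355 and 0.679). Cd40lg, the helper ligand of CD4 T cells, had 1 UMI in all members.

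Tcf7, the transcription factor of naive and stem-like T cells, had 25.6, 47.5, 22.2 and 25.1 CPM and was found in 6.34% of thinned members against 0.0868% of macrophage-like cells. The interleukin-7 receptor gene Il7r had 151, 244, 254 and 209 CPM, with shNC 1 the lowest library. Of the effector regulators, Id2 had 1006, 951, 999 and 907 CPM and Bhlhe40 739.8, 805, 966 and 764 CPM. Runx3, a factor that fixes the CD8 lineage, had 350.2, 329.5, 371 and 319.6 CPM. Eomes, another effector regulator, had a mean of only 21.3 CPM. The groups overlapped for Id2, Bhlhe40 and Runx3.

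The leading secreted product was Ccl5, a chemokine that draws T cells and myeloid cells, with 8062, 6988, 12222 and 11106 CPM, rank 4 of all genes behind Tmsb4x, Malat1 and Actb. The chemokine gene Ccl4 had 1816, 538, 673 and 984 CPM and the lymphotoxin gene Ltb 449.8, 471, 576 and 559 CPM. For Ccl5 and Ltb both shSELP libraries lay above both shNC libraries, as for 19.7% of all genes tested, and for Ccl4 the groups overlapped. Neither Ccl5 nor Ltb passed the edgeR test of the groups given below (adjusted p 0.0764 and 0.519). Interleukin-21 (Il21) had 0 UMIs among 4004980, which allows up to 0.749 CPM.

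PSGL-1, the receptor through which these cells could bind P-selectin, was well expressed. Selplg had 516, 535, 595 and 611 CPM, with a mean of 564 ± 45.9 (SD, n = 4 libraries). The groups did not overlap, as for 40.6% of all genes tested. It was found in 65.8% of thinned members against 22.3% of macrophage-like cells, and in 90.9% and 74.3% before thinning. The study reports PSGL-1 on macrophages too, so for this gene their share is no background. Selplg had a mean of 135 CPM in the macrophage-like cells. Among enzymes that modify PSGL-1, the tyrosine sulfotransferase gene Tpst2 had 97.7, 95.01, 106 and 119 CPM and the sialyltransferase gene St3gal4 30.6, 26.3, 31.98 and 43.4 CPM. Fut7, the fucosyltransferase that completes the selectin-binding sugar, had 2, 3, 2 and 2 UMIs, or 1.97, 3.03, 1.78 and 2.28 CPM, and lay at or under the 3-UMI limit in every library. So Selplg was the bulk of its list, whose 14 genes summed to 816, 834, 902 and 918 CPM.

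Among homing and tissue residence genes, Rgs1, a brake on chemokine receptors, had 837, 791, 787 and 1179 CPM. Cxcr6, a chemokine receptor of tissue T cells, had 474, 332, 455 and 499 CPM. The activation and retention gene Cd69 had 267, 449.8, 429 and 382 CPM, and the groups overlapped for all 3. S1pr5, an exit receptor, had 0 UMIs. MHC class I genes were abundant in the members, with 3399, 3891, 3706 and 4146 CPM of B2m, the shared chain, and 3073, 3754, 4038 and 4083 CPM of the heavy chain gene H2-K1. The interferon-induced gene Ifi27l2a had 1800.1, 2730.1, 2349.6 and 2518 CPM, with shNC 1 the lowest library.

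Markers of other cells were counted in the members over whole lists. Macrophage and microglia markers had a UMI for 15 of 15 genes and summed to 811, 743, 889 and 1934 CPM, with Cst3 the most abundant and shSELP 2 above the other libraries. In the macrophage-like cells the same list summed to 65212, 60107, 78812 and 78958 CPM. Dendritic cell markers had a UMI for 10 of 12 genes, with Flt3 and Clec9a at 0, and summed to 576, 1038, 235 and 1187 CPM, led by Cd74. Neutrophil markers had a UMI for 6 of 7 genes, with Retnlg at 0, and summed to 2.96, 161, 5.33 and 7.99 CPM, led by S100a9 and concentrated in shNC 2. B and plasma cell markers had a UMI for 8 of 9 genes and summed to 141, 179.9, 45.3 and 66.2 CPM, led by Igkc. NK cell markers, of which Gzma is shared with CD8 T cells and was the most abundant, had a UMI for 9 of 10 genes and summed to 1941, 2536, 3030.1 and 3770.1 CPM, with the defining gene Ncr1 at 0. Gamma-delta T cell markers had a UMI for 7 of 9 genes, with Trdv4 among those at 0, and summed to 97.7, 80.9, 113 and 68.5 CPM, led by Tcrg-C2. Tumor and glial markers had a UMI for 9 of 9 genes and summed to 50.3, 83.9, 68.4 and 78.8 CPM, led by Mbp, and vascular and stromal markers had one for 8 of 8 and summed to 33.5, 31.3, 143 and 47.9 CPM, led by Pecam1, with shSELP 1 the highest.

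The number of CD8 T cells in the mix varied more between the shSELP libraries than between the shNC libraries. Members made up 35.5% (31.1% to 40.2%, exact 95% binomial interval) of the T cells in shNC 1 and 33.8% (29.5% to 38.4%) in shNC 2. In shSELP 1 they made up 50.4% (45.4% to 55.3%) and in shSELP 2 22.7% (19.02% to 26.8%), so the shSELP libraries lay on both sides of the shNC libraries. T cells here are the 1770 cells with at least 2 CD3 UMIs and no Ms4a7 UMI. The group means were 34.7% ± 1.19 (SD, n = 2) in shNC and 36.6% ± 19.5 (SD, n = 2) in shSELP, a difference of 1.86 percentage points with an exact two-sided permutation p of 1, where 2 libraries against 2 allow no p below 0.333. Among all cells the shares were 7.15% (6.10% to 8.31%), 7.02% (5.98% to 8.18%), 9.50% (8.30% to 10.8%) and 4.88% (4.01% to 5.87%), again with the shSELP libraries on both sides. Their means were 7.08% ± 0.0881 (SD, n = 2) and 7.19% ± 3.27 (SD, n = 2), a difference of 0.103 points with an exact permutation p of 1. Without shSELP 1 the differences became −11.9 points among T cells and −2.21 points among all cells, and without shSELP 2 they became 15.7 and 2.41 points.

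Cycling CD8 T cells, with 2 or more Mki67 and Top2a UMIs, made up 33.9%, 26.1%, 14.8% and 28.4% of CD8 T cells, and conventional CD4 T cells 15.7%, 17.3%, 16.7% and 29.8% of T cells. The shSELP 1 library thus held the largest share of members and the smallest share of cycling cells among CD8 T cells, and its cells were also the shallowest (a median of 4806 UMIs in members, and of 14154.5, 12599.5, 8336.5 and 15320 UMIs in the cycling cells of the libraries). With the selection made after thinning to 2000 UMIs, members made up 45.4%, 41.1%, 55.9% and 28.6% of T cells, shSELP 1 again the highest, and the group difference in the share of CD8 T cells among T cells became −0.983 points.

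**Figure D2:**
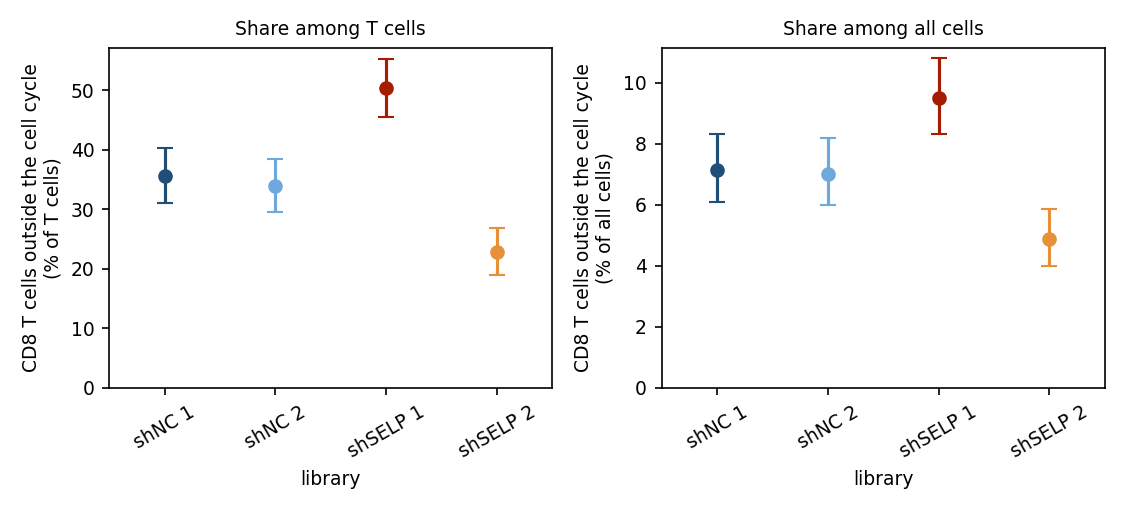
Share of CD8 T cells outside the cell cycle among T cells and among all cells, in percent, for each library (points) with exact 95% binomial intervals (bars). The shSELP libraries, at 50.4% and 22.7% of T cells, lie above and below the shNC libraries at 35.5% and 33.8%.

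The first comparison asked which genes of the CD8 T cells differed between shSELP and shNC tumors. Most of the genes described so far did not pass the test. The integrin chain of tissue-resident T cells was higher in shSELP tumors, and the lymph node homing receptor Ccr7, 1 of the T cell receptor beta constant genes and granzyme C were lower. UMIs of the members were summed per library and compared with edgeR's quasi-likelihood test, with log2 fold changes as shSELP over shNC and p-values adjusted over all genes tested by the Benjamini-Hochberg method. Of 6929 genes tested, 11 passed an adjusted p of 0.05, or 0.159%, with 5 higher (0.0722%) and 6 lower (0.0866%), and 657 had an unadjusted p under 0.05.

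Itgae encodes the integrin chain CD103, which holds T cells to E-cadherin in tissue. It had 19.7, 10.1, 86.2 and 73.0 CPM, so both shSELP libraries were far above both shNC libraries, with a log2 fold change of +2.43 ± 0.30 (standard error, 4 libraries) and an adjusted p of 0.0120. Irs2, an adaptor of insulin and cytokine receptors, had 18.7, 20.2, 77.3 and 53.6 CPM, and the groups did not overlap. Its log2 fold change was +1.78 ± 0.29 (adjusted p 0.0430). Pag1, a membrane adaptor that restrains Src kinases at the T cell receptor, had 57.2, 57.6, 129.7 and 119.8 CPM and a log2 fold change of +1.14 ± 0.18 (adjusted p 0.0430). Ifitm1, an interferon-induced membrane protein, had 1373, 1448, 2491 and 2436 CPM, the highest level of the 5 genes. The difference for Ifitm1 was +0.83 ± 0.12 (adjusted p 0.0357). Gm12840, a gene model without a settled role, had 51.3, 70.8, 143 and 143 CPM and a log2 fold change of +1.25 ± 0.20 (adjusted p 0.0430).

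Ccr7 guides T cells to lymph nodes. With 215, 165, 42.6 and 59.4 CPM, it was lower in both shSELP libraries than in both shNC libraries, with a log2 fold change of −1.89 ± 0.21 (adjusted p 0.0120). Trbc1, 1 of the alternative constant regions of the receptor beta chain, had 1198, 972, 330.5 and 463 CPM, so both shSELP libraries held less than either shNC library. The log2 fold change of Trbc1 was −1.44 ± 0.17 (adjusted p 0.0120), while the other constant region, Trbc2, had 1572, 2083, 2185 and 2142 CPM and +0.26 (adjusted p 0.610) and Trac +0.22 (adjusted p 0.620). Gzmc had the values given among the granzymes, with a log2 fold change of −2.87 ± 0.43 (adjusted p 0.0370) and shNC 2 above shNC 1. Il1r2, a decoy receptor that binds interleukin-1 without signalling, had 40.4, 61.7, 3.55 and 12.6 CPM and fell by 2.71 on the log2 scale (adjusted p 0.0430). Mif, a secreted cytokine of stress and hypoxia, had 1291, 886, 469 and 539.9 CPM and −1.09 ± 0.18 (adjusted p 0.0439).

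Igkc, an antibody light chain that T cells do not make, was also lower, with 83.8, 107, 24.9 and 31.96 CPM and a log2 fold change of −1.74 ± 0.23 (adjusted p 0.0204). Over all cells Igkc had 4144, 2004, 775 and 1271 CPM and in macrophage-like cells 27.2, 13.8, 3.06 and 6.22 CPM, with both shNC libraries above both shSELP libraries in each. The part of B and plasma cell RNA in this call was not tested.

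**Figure D3:**
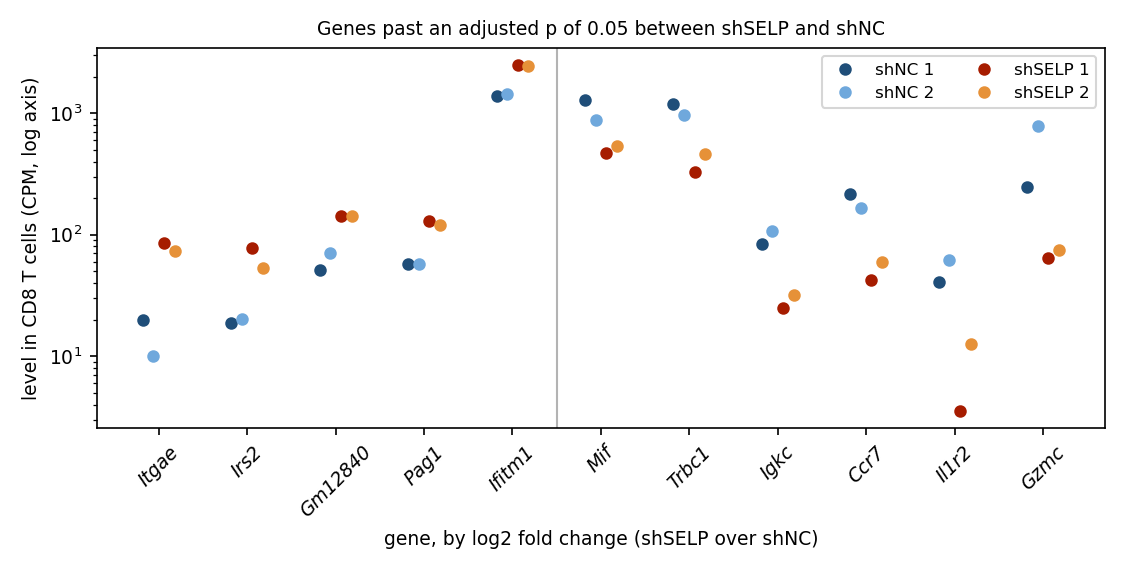
Levels of the 11 genes past an adjusted p of 0.05 between shSELP and shNC, in CPM on a log axis, for the 4 libraries (points). Itgae lies between 73.0 and 86.2 CPM in the shSELP libraries and between 10.1 and 19.7 CPM in the shNC libraries.

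Among genes that did not pass, the closest to the threshold with higher values in both shSELP libraries was Ccl5, with +0.66 (adjusted p 0.0764). Itga1, the collagen-binding integrin chain CD49a, had 50.3, 40.4, 129.7 and 86.7 CPM and +1.29 (adjusted p 0.0929), and Gzma +0.75 (adjusted p 0.0929). Next were the ribosomal gene Rpl36al with +0.71 (adjusted p 0.106) and Enpp2, which makes lysophosphatidic acid, with +3.26 (adjusted p 0.111). On the other side stood Stmn1, a microtubule regulator of dividing cells, with −1.24 (adjusted p 0.0764), and Batf, a transcription factor of activated T cells, with 102, 98.0, 50.6 and 47.9 CPM and −0.99 (adjusted p 0.0929). The transcription factor gene Zbtb32 had −1.42 (adjusted p 0.0862) and the pyrophosphatase gene Ppa1 −0.90 (adjusted p 0.104). The markers and the other genes followed in every comparison did not pass. Gzmb had a log2 fold change of −0.09 (adjusted p 0.864), Nkg7 +0.22 (0.614), Klrd1 −0.03 (0.967) and Prf1 −0.17 (0.880). Without shSELP 2 the value of Gzmb became +0.03, and without shNC 1 that of Klrd1 became +0.04 and that of Prf1 +0.46. Pdcd1 had +0.32 (0.552), Lag3 +0.72 (0.145) and Selplg +0.22 (0.650). A p that misses the threshold does not show that values did not differ.

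By list, the median log2 fold change over all genes tested was +0.01, and libraries of the groups did not overlap for 2810 of 6929 genes, or 40.6%, of which 1367 lay higher (19.7%) and 1443 lower (20.8%) in shSELP. The homing and tissue residence list had 17 genes tested, 1 higher (Itgae) and 0 lower, with a median of +0.20. Naive and memory genes had 13 tested, 0 higher and 1 lower (Ccr7), with a median of −0.47. The cytotoxic granule list had 15 tested, 0 higher and 1 lower (Gzmc), with a median of −0.02, and the T cell receptor list 13 tested, 0 higher and 1 lower (Trbc1), with a median of −0.01. Glycolysis genes had 16 tested and 0 called, but 10 lay lower in both shSELP libraries and 0 higher, with a median of −0.52. The glycolytic enzyme gene Ldha had 1132, 824, 483 and 631 CPM and Pkm 819, 579, 347 and 419 CPM, with shNC 1 the highest and shSELP 1 the lowest in both. Cell cycle genes outside the selection had 19 tested and 0 called, with 11 lower in both shSELP libraries and a median of −0.55, and Hmgb2, a chromatin protein, was the most abundant with 1153, 1047, 793 and 958 CPM. Immediate early genes, which respond within minutes to stimulation, had 14 tested and 0 called, 6 higher in both shSELP libraries and a median of +0.30.

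Of the remaining lists, these had 0 genes called. The medians were −0.37 for 10 killer lectin-like receptors, +0.15 for 14 inhibitory receptors and +0.02 for 10 costimulatory receptors. They were −0.03 for 14 effector transcription factors, −0.09 for 9 PSGL-1 and glycosylation genes, −0.01 for 12 cytokines and chemokines and +0.03 for 14 cytokine receptors. For 18 interferon-response genes the median was −0.01, for 14 MHC class I genes +0.06 and for 11 heat-shock chaperones +0.17. Among marker lists of other cells, 11 macrophage genes had a median of +0.91 with 5 higher in both shSELP libraries, 5 NK genes −0.53 and 3 tumor and glial genes +0.22. Of 2 B and plasma cell genes tested, Igkc was lower and the median was −1.47, and of 5 dendritic genes Ccr7, which T cells share, was lower and the median was −0.12. The part of these other cells in the comparison was not tested.

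The count of called genes moved with each library. It was 72 without shNC 1, 179 without shNC 2, 83 without shSELP 1 and 195 without shSELP 2, and each of these sets held all 11 genes, with the lone library of a group assumed to vary like the others. DESeq2 called 22 genes, of which 4 were among the 11 (Trbc1, Ifitm1, Mif and Gzmc), and its filter on mean counts left the other 7 (Itgae, Irs2, Gm12840, Pag1, Il1r2, Ccr7 and Igkc) without an adjusted p.

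The next comparison asked whether CD8 T cells responded to shSELP differently from conventional CD4 T cells of the same libraries, which carried Cd4, neither CD8 chain nor Foxp3, and at most 1 UMI of the proliferation genes. The response of the CD8 T cells was the lower one for granzyme C and the interleukin-1 decoy receptor. In the test of the difference itself, with library as a block, 2 of 7638 genes passed with edgeR, 0 higher and 2 lower, or 0.0262%, and 271 had an unadjusted p under 0.05. For Il1r2 the CD8 T cells had 40.4, 61.7, 3.55 and 12.6 CPM and the CD4 T cells 234, 354, 248 and 456 CPM, so its lowest values were those of the CD8 T cells in the shSELP libraries. The difference of the responses was −2.96 ± 0.36 (adjusted p 0.0119). For Gzmc the CD4 T cells had 13.8, 42.1, 27.2 and 103 CPM against 245, 791, 64.8 and 75.3 CPM in the CD8 T cells, a difference of −4.05 ± 0.49 (adjusted p 0.0119). Trbc1 had 951, 393, 567 and 1011 CPM in CD4 T cells, where the groups overlapped, and a difference of −1.76 ± 0.29 that did not pass (adjusted p 0.125). Ccr7 had 662, 706, 683 and 578 CPM in CD4 T cells, again with overlap, and a difference of −1.76 ± 0.29 (adjusted p 0.125). The markers, Prf1, Pdcd1, Lag3 and Selplg had differences between +0.07 for Klrd1 and +0.72 for Prf1, each with an adjusted p of 1, and those of Klrd1 and Prf1 changed sign when 1 library was left out. Without shNC 1 or shNC 2 the test called 0 genes, with 229 and 390 at an unadjusted p under 0.05, and without shSELP 1 or shSELP 2 it called 35 and 41, with the lone library assumed to vary like the others. DESeq2 called 4. In the CD4 T cells alone edgeR called 0 of 5395 genes, with 166 at an unadjusted p under 0.05, and no other tool was run. There the groups did not overlap for 1783 genes (33.0%), 827 higher (15.3%) and 956 lower (17.7%).

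Against conventional CD4 T cells, the CD8 T cells differed in granule, cytokine and receptor genes. Granzymes A, B, C and K, perforin and the lectin receptor genes Klrd1 and Klrk1 were higher in the CD8 T cells, while granzymes D and E, 8 cytokine genes, 5 costimulatory genes and Ccr7 were higher in the CD4 T cells. PD-1 and LAG-3 did not pass, and PSGL-1 was higher in the CD8 T cells. The comparison took 623 CD8 and 355 CD4 T cells, with a median of 5587 and 5787 UMIs, summed per library with library as a block. Of 6779 genes tested with edgeR, 906 passed an adjusted p of 0.05, or 13.4%, with 409 higher (6.03%) and 497 lower (7.33%) in CD8 T cells. The direction between the populations was the same within every library for 2215 genes (32.7%), 701 higher (10.3%) and 1514 lower (22.3%). With cells thinned to 2000 UMIs, 395 of 3195 genes passed for CD8 against conventional CD4 T cells.

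Gzmb had 5021, 4682, 4815 and 4176 CPM in CD8 and 383, 517, 250.1 and 361 CPM in CD4 T cells, so every library showed the same direction, with a log2 fold change of +3.76 ± 0.15 (adjusted p 2.2e-09). Gzma had 11.0, 43.8, 4.95 and 625 CPM in CD4 T cells and a log2 fold change of +5.10 ± 0.61, Gzmk 2.76, 10.1, 2.48 and 9.58 CPM and +4.40 ± 0.23, and Prf1 46.9, 82.6, 7.43 and 63.6 CPM and +2.59 ± 0.33. The lectin receptor chains followed, with +1.81 for Klrk1, the NKG2D receptor for stress ligands, and +0.96 for Klrd1. Ly6c2, a surface protein of effector and memory CD8 T cells, had the largest difference of the named genes that were higher, +5.59 ± 0.25, and Cd160, a receptor for MHC class I and HVEM, had +3.63. Ccl5 had 361, 566, 740.3 and 978 CPM in CD4 T cells, far below every library of the CD8 T cells, and Xcl1, which attracts cross-presenting dendritic cells, differed by +2.23. The cytotoxic granule list had 17 tested, 9 higher and 3 lower (Gzmd, Gzme and the granule proteoglycan gene Srgn) with a median of +0.56, beside +0.01 over all genes. Of the 17, 7 were higher and 2 lower in every library. The killer lectin-like list had 9 tested, 4 higher and 1 lower with a median of +0.57.

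Among the genes lower in the CD8 T cells were Cd40lg, Csf2, Tnfsf8 and Il21. Cd40lg, the signal of CD4 T cells to B and dendritic cells, had 1 UMI in CD8 and 188 in CD4 T cells, a ratio of 300.2-fold lower (counting interval 53.2 to 11920). Csf2, the growth factor GM-CSF, differed by −6.17 ± 0.31 and Tnfsf8, the CD30 ligand, by −4.27 ± 0.25. Il21, a helper cytokine, had 0 UMIs in CD8 and 41 in CD4 T cells and was at least 21.8-fold lower, against a limit of 3 UMIs over the group. The cytokine and chemokine list had 15 tested, 2 higher and 8 lower, Ifng and Tnf among them, with a median of −1.03, the same with Il21 at its bound. The costimulatory list had 11 tested, 3 higher (Cd27, Cd226 and Slamf7) and 5 lower with a median of −0.31, with Tnfrsf18 (GITR) at −0.80 and Icos at −0.70. Naive and memory genes had 12 tested, 2 higher and 4 lower with a median of −0.26, among them Ccr7 with −2.56 ± 0.28 and Il7r with −0.71.

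Inhibitory receptors were split between the populations. Pdcd1 had 339, 279.7, 243 and 315 CPM in CD4 T cells and a difference of +0.33 (adjusted p 0.133), and Lag3 had 198, 174, 215 and 215 CPM and −0.37 (adjusted p 0.0949). Ctla4 was lower in the CD8 T cells with −0.55 ± 0.15, and the list had 16 tested, 2 higher and 4 lower with a median of −0.35. Selplg had 323, 315, 250.1 and 352 CPM in CD4 T cells, below the CD8 T cells in every library, with a log2 fold change of +0.97 ± 0.12. The PSGL-1 list had 8 tested, 3 higher (Selplg, the sialyltransferase gene St3gal6 with +2.11 and Tpst2 with +0.45) and 1 lower, with a median of +0.32. Transcription factors had 14 tested, 5 higher and 6 lower with a median of −0.31, and Eomes, a driver of cytotoxic memory, had +3.31 ± 0.52. Homing genes had 16 tested, 5 higher and 2 lower with a median of +0.34. The T cell receptor list had 13 tested, 1 higher and 6 lower with a median of −0.13.

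Immediate early genes had 14 tested, 5 higher and 2 lower with a median of +0.32, interferon-response genes 18 tested, 3 higher and 1 lower with +0.31, and heat-shock chaperones 10 tested, 4 higher and 0 lower with +0.35. MHC class I genes had 14 tested, 4 higher and 0 lower with a median of +0.15, cytokine receptors 14 tested, 4 higher and 5 lower with +0.02, and glycolysis genes 16 tested, 1 higher and 3 lower with −0.22. Macrophage markers, whose part was not tested, had 10 tested, 0 higher and 3 lower with a median of −0.87, with Cst3 at −1.04.

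Against NK cells, which kill with the same granules but lack a T cell receptor, the CD8 T cells did not differ in granzyme B past the threshold, and the receptors around it set them apart. PD-1, LAG-3, the T cell receptor chain genes Trac and Trbc2 and 10 of 15 glycolysis genes were higher in the CD8 T cells, and perforin, granzyme A, the Ly49 receptor gene Klra4 and the adaptor genes Tyrobp and Fcer1g were lower. NK cells were 127 cells with no CD3 UMI and 2 or more UMIs of Ncr1 and Klrb1c together, with a median of 4015 UMIs, under the same limits on proliferation genes and Ms4a7, and the genes that chose either population were not tested. The libraries held 23, 54, 13 and 37 NK cells, so directions within a library rest on few cells. In the NK cells of shSELP 1, 3 UMIs stand for 53.9 CPM. Of 5419 genes tested with edgeR, 612 passed, or 11.3%, with 253 higher (4.67%) and 359 lower (6.62%) in CD8 T cells. The direction was the same within every library for 1604 genes (29.6%), 932 higher (17.2%) and 672 lower (12.4%). For CD8 against NK cells, 315 of 2154 genes passed with cells thinned to 2000 UMIs, and 401 passed without shNC 2, with the lone shNC library assumed to vary like the others.

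The granule genes were not alike. Gzmb had 3998, 5884, 3339.8 and 3455 CPM in NK cells, overlapping the CD8 T cells, and a difference of +0.18 (adjusted p 0.607), and Nkg7 had +0.12 (adjusted p 0.717). Perforin (Prf1) was lower in the CD8 T cells in every library, with 978, 1117, 1023 and 706 CPM in NK cells and a log2 fold change of −1.71 ± 0.19. Gzma had 8961, 9539, 9966 and 6578 CPM in NK cells and −1.83 ± 0.19. Gzmk had 0 UMIs in NK cells and was at least 27.9-fold higher in CD8 T cells, against 3 UMIs over the NK cells. The list had 15 tested, 2 higher and 6 lower with a median of −0.22, the same with Gzmk at its bound, beside +0.04 over all genes.

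Pdcd1 had 1378 UMIs in CD8 T cells and 0 in NK cells and was at least 70.1-fold higher, and Lag3 had 582 and 3 UMIs, a ratio of 29.6 (counting interval 10.1 to 144). Costimulatory receptors had 10 tested, 6 higher and 0 lower with a median of +1.35, the same with Tnfrsf4 and Slamf1 at their bounds, and the OX40 gene Tnfrsf4 was at least 33.8-fold higher. Icos differed by +3.17 ± 0.24 and Cd28 by +2.41 ± 0.30. The T cell receptor list had 13 tested, 11 higher and 1 lower with a median of +1.45, the same with Cd5 and Cd6 at their bounds, which follows from the choice of the cells by CD3. Trac differed by +4.51 ± 0.26 and Trbc2 by +3.01 ± 0.19, while Trbc1 had 664, 715, 413 and 628 CPM in NK cells and +0.13 (adjusted p 0.764). Cxcr6 was among the largest differences of the homing list with +5.63 ± 0.35, and Il7r had +2.32.

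Lower in the CD8 T cells were the receptors that define NK cells. Klra4, an activating Ly49 receptor, had 3 UMIs in CD8 T cells and 278 in NK cells, a ratio of 607-fold lower (counting interval 206 to 2962). Tyrobp, the adaptor DAP12 of activating receptors, differed by −5.54 ± 0.24, and Fcer1g, an adaptor of Fc receptors, by −4.09 ± 0.17. The NK marker list had 8 tested, 0 higher and 8 lower with a median of −5.05, which follows from the choice of the NK cells by Ncr1 and Klrb1c. The killer lectin-like list had 12 tested, 1 higher and 8 lower with a median of −1.90. The exception was Klrc1, the NKG2A chain that pairs with CD94, with +1.08 ± 0.23, whereas Klrd1 had −0.03 (adjusted p 0.952). Without shNC 1 the value of Klrd1 became +0.12 and that of Trbc1 −0.08.

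Glycolysis genes had 15 tested, 10 higher and 0 lower with a median of +0.78, with Gapdh at +1.24 ± 0.16 and the aldolase gene Aldoa at +1.19 ± 0.17. Interferon-response genes had 17 tested, 6 higher and 0 lower with a median of +0.61, led by Ifi27l2a with +4.27 ± 0.20. Immediate early genes had 14 tested, 0 higher and 7 lower with a median of −0.55, with Junb at −0.87, and naive and memory genes 9 tested, 1 higher and 6 lower with a median of −1.19, with Bcl2, a survival gene, at −1.33. The inhibitory list had 13 tested, 5 higher and 3 lower with a median of +0.90, the same with Pdcd1 at its bound. Transcription factors had 13 tested, 1 higher and 6 lower with a median of −0.47, and Irf8 had −2.51 ± 0.15. Homing genes had 15 tested, 3 higher and 4 lower with a median of −0.24, cytokines and chemokines 11 tested, 2 higher and 4 lower with −0.16, and MHC class I genes 14 tested, 3 higher and 1 lower with +0.35.

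Selplg had 889.9, 730.2, 628 and 783 CPM in NK cells, above the CD8 T cells of the same library each time, with −0.45 (adjusted p 0.0683), and B4galt1, a galactosyltransferase of the sugar chains, passed with −0.91. Gamma-delta markers had 2 tested, Tcrg-C2 higher and Trdc lower, with a median of +1.74 that became −0.40 with Tcrg-C2 at its bound of at least 16.3-fold. Macrophage markers had 10 tested, 4 higher and 0 lower with a median of +0.45. Dendritic markers had 6 tested and 1 lower (Itgax). In the NK cells they summed to 677, 348, 6769 and 528 CPM, with shSELP 1 far above the other libraries. Of the B and plasma cell genes Igkc was higher and Ighm lower, and the vascular gene Pecam1 was lower. The part of these other cells was not tested.

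Against cycling CD8 T cells, which met the same conditions but had 2 or more Mki67 and Top2a UMIs, the cells outside the cycle had higher levels of most interferon-response, immediate early, cytokine and naive-state genes tested. For the summed interferon-response and cytokine lists the gap was smallest in shSELP 1, which gave 36 cycling cells. Granzyme B, perforin and PD-1 did not pass, and LAG-3, PSGL-1 and Nkg7 were higher outside the cycle. The comparison took 623 and 212 cells with a median of 5587 and 13010 UMIs, so the cycling cells were deeper. Of 6739 genes tested with edgeR, 1350 passed, or 20.0%, with 595 higher (8.83%) and 755 lower (11.2%) outside the cycle. The direction was the same within every library for 2326 genes (34.5%), 958 higher (14.2%) and 1368 lower (20.3%). With cells thinned to 2000 UMIs, 283 of 2544 genes passed for CD8 against cycling CD8 T cells, 107 higher and 176 lower, while the list counts given here were taken without thinning. Without shNC 1, 857 genes passed, with the lone shNC library assumed to vary like the others. Cell cycle genes follow from the selection and were lower for 24 of 24, with a median of −2.79, as a description.

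Interferon-response genes had 18 tested, 15 higher and 0 lower with a median of +0.73, beside +0.01 over all genes. Of the 18, 10 were higher in every library. The list summed to 3296, 5597, 4488 and 4875 CPM in members and to 1679, 3563, 4333 and 2714 CPM in cycling cells, so the populations of shSELP 1 lay close. Ifit1, an RNA-binding antiviral protein, had 39.5, 116, 52.4 and 57.1 CPM against 5.19, 18.2, 48.3 and 9.12 CPM in cycling cells, higher in every library, with +2.08 ± 0.31. Isg15, a ubiquitin-like antiviral protein, had 181, 358, 273 and 289 against 86.5, 191, 193 and 97.3 CPM and +1.04 ± 0.13. Immediate early genes had 14 tested, 13 higher and 0 lower with a median of +0.69, and Dusp2, a phosphatase of MAP kinases, had +1.13 ± 0.09. The cytokine and chemokine list had 12 tested, 8 higher and 0 lower with a median of +0.73, with Ccl5 at +1.83 ± 0.18 and Ccl4 at +1.66 ± 0.19. That list summed to 14132, 8852, 14600 and 13940 CPM in members and to 3766, 3254, 10003 and 3890 CPM in cycling cells. Naive and memory genes had 9 tested, 7 higher and 0 lower with a median of +0.60, Bcl2 among them with +0.60.

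Homing genes had 17 tested, 8 higher and 0 lower with a median of +0.51, with the monocyte chemokine receptor gene Ccr2 at +1.68 ± 0.26 and Cxcr6 at +0.74 ± 0.09. Costimulatory receptors had 10 tested, 5 higher and 0 lower with a median of +0.48, with Cd28 at +0.73 and Icos at +0.64. Inhibitory receptors had 14 tested, 4 higher and 0 lower with a median of +0.45. Lag3 had 79.5, 78.2, 103 and 126 CPM in cycling cells, less than in the members of each library, with +0.60 ± 0.12 (adjusted p 0.000608), while Pdcd1 had 334, 349, 323 and 337 CPM and +0.05 (adjusted p 0.788).

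The cytotoxic granule list had 15 tested, 8 higher and 0 lower with a median of +0.35, with Nkg7 at +0.35 ± 0.07 and Srgn, the granule proteoglycan, at +0.42. Gzmb had 4456, 5179, 4387 and 3381 CPM in cycling cells and +0.15 (adjusted p 0.166), which became −0.02 with cells thinned to 2000 UMIs. Prf1 had +0.12 (adjusted p 0.613) and Klrd1 +0.17 (adjusted p 0.216). Selplg had 405, 428, 428 and 488 CPM in cycling cells and +0.40 ± 0.09, and was the only gene called of 7 tested in its list. Glycolysis genes had 16 tested, 1 higher and 5 lower with a median of −0.12, with the lactate dehydrogenase gene Ldha at −0.43 ± 0.08. MHC class I genes had 14 tested, 7 higher and 0 lower with a median of +0.28, transcription factors 14 tested, 6 higher and 1 lower (Irf8, −0.56) with +0.40, and heat-shock chaperones 10 tested, 0 higher and 3 lower with −0.06. T cell receptor genes had 13 tested, 5 higher and 0 lower with a median of +0.20, and macrophage markers had 10 tested, 4 higher and 1 lower with +0.41. Of 5 dendritic markers Cd74 was lower, and of 2 B and plasma cell genes Ighm was higher. In the cycling cells the B and plasma cell markers summed to 4109, 47.5, 18.1 and 60.8 CPM, with shNC 1 far above the other libraries. The part of these other cells was not tested.

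**Figure D4:**
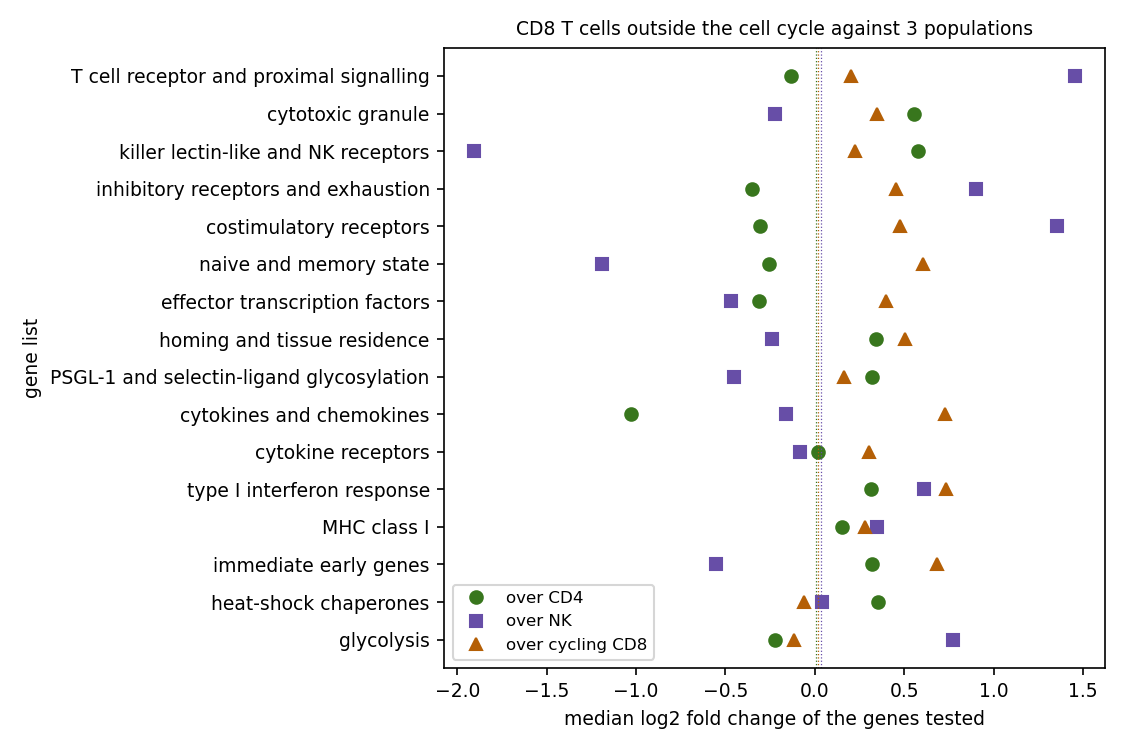
Median log2 fold change of the genes tested in 16 functional lists, for CD8 T cells outside the cell cycle over CD4 T cells (circles), NK cells (squares) and cycling CD8 T cells (triangles), with dotted lines for all genes tested. The interferon list lies above 0 against all 3, and the cytokine list is lowest against CD4 T cells at −1.03.

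The members also varied among themselves in Gzmb, a gene of effector cells, and Tcf7, a gene of naive and stem-like cells. After thinning, 459 cells had a Gzmb UMI and no Tcf7 UMI and 25 cells had a Tcf7 UMI and no Gzmb UMI, with 108, 111, 155 and 85 of the former and 5, 9, 7 and 4 of the latter in the libraries. A Tcf7 UMI was found in 2.75% of the members with a Gzmb UMI (13 of 472) and in 19.7% of those without (25 of 127), a lower share with Gzmb in each library, while 13 of the 38 cells with a Tcf7 UMI had both. Perforin, granzyme A, Nkg7, Ccl4, Ccl5 and Id2 were higher in the Gzmb cells, and Cd69 and Emb were lower. Of 1329 genes tested with edgeR, 46 passed, or 3.46%, with 34 higher (2.56%) and 12 lower (0.903%) in the Gzmb cells. Gzmb and Tcf7 chose the cells and were not tested. The direction was the same within every library for 279 genes (21.0%), 170 higher (12.8%) and 109 lower (8.20%). Without shNC 1 the count was 22, with the lone shNC library assumed to vary like the others.

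Prf1 had 293 UMIs in the Gzmb cells and 0 among the 50000 of the Tcf7 cells, so it was at least 5.32-fold higher against 3 UMIs over the group. Gzma had 2409 and 1 UMIs, a ratio of 131 (counting interval 23.5 to 5185), and Gzmf 375 and 1, a ratio of 20.4 (3.64 to 809). Nkg7 was higher by +1.91 ± 0.21 on the log2 scale, Ccl4 by +3.13 ± 0.47 and Ccl5 by +1.27 ± 0.15. The cytotoxic granule list had 12 tested, 4 higher and 0 lower with a median of +0.59, the same with Prf1 at its bound, beside +0.08 over all genes. Tnfrsf9, the 4-1BB receptor, had 509 and 3 UMIs, a ratio of 9.24 (3.14 to 44.96), and it was the 1 gene called of 7 costimulatory receptors. Among regulators Id2, which supports effector cells, had +2.13 ± 0.38 and Irf8 +2.31 ± 0.64, the 2 called of 6 tested. Cxcr6 had +2.11 ± 0.56 and the interferon-induced gene Ifitm1 +3.23 ± 0.43.

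In the other direction, Emb, a membrane glycoprotein of the immunoglobulin family, had −2.11 ± 0.33 and Arhgap15, a regulator of the GTPase Rac, −1.81 ± 0.49. Cd69 was lower in the Gzmb cells with −1.24 ± 0.37. Ribosomal protein genes among the called were Rplp1 with −0.54, Rps19 with −0.53, Rps27a with −0.52 and Rps20 with −0.50, all of which changed sign with no filter on low counts, as did the ferritin gene Fth1 at −0.72. The MHC class II genes Cd74 and H2-Aa had −2.45 and −2.96, and in the Tcf7 cells Cd74 was found in shNC 2 and shSELP 2 only. Of the dendritic markers 2 were tested and both were lower, and of 3 macrophage markers Apoe was lower with −1.76 and became +0.12 without shSELP 2, and the part of these cells was not tested. Naive and memory genes other than Tcf7 had 4 tested and 0 called, with a median of −0.99. Klrd1 had +0.91 (adjusted p 0.129) and Pdcd1 +1.13 (adjusted p 0.358), and Selplg did not pass (adjusted p 0.999).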

How the data were processed

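UMI counts per gene and cell were used as deposited by the authors, who had made them with Cell Ranger 1.3 on the mouse genome mm10, per the submitters' processing notes. The authors' single-cell comparison was not used. Counts of the members, and of each population beside them, were summed per library and tested with edgeR 4.0.16 in R 4.3.3 (filterByExpr with a minimum count of 10, TMM scaling, quasi-likelihood F test, Benjamini-Hochberg adjustment across all genes tested, threshold 0.05), with library as a block where populations were compared. These p-values measure only the spread between libraries. DESeq2 1.42.0 was the alternative. Other steps ran in Python 3.11.15 (pandas 2.3.3, scipy 1.17.1, numpy 2.4.6) and scanpy 1.11.5, whose Scrublet (expected rate 0.05) called 97 doublets in the mix, 8 of them members. The called cells were kept. Without them the group difference in the share of CD8 T cells was 2.08 points among T cells and 0.155 points among all cells. Shares were compared by the exact permutation test over libraries. The code was tested on simulated data.

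The members and lists were chosen with earlier results of these data known, and the 25 lists held 337 genes. The genes named were taken from the markers and activation genes, up to 4 of the most abundant genes of each list, and per comparison the 10 largest log2 fold changes each way that passed, had a mean of at least 50 CPM in the higher population and were apart. Between shSELP and shNC, apart meant that the groups did not overlap. Between populations it meant that the direction was the same within every library. Where fewer passed between shSELP and shNC, the 10 smallest p-values each way were added and named as not passing. Not every gene that met these conditions is named, and some genes of the lists are not reported here.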

Additional observations from a re-analysis of the deposited data

Results flagged for a closer look

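The test of the difference between the response of the CD8 T cells and the response of the CD4 T cells to shSELP called 2 genes. Their values were −2.96 for Il1r2 and −4.05 for Gzmc on the log2 scale, lower in the CD8 T cells, and with shNC 1 or shNC 2 left out the test called 0 genes.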

How the results depend on the processing

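The shSELP against shNC in CD8 T cells comparison called 11 genes, and 72 to 195 with 1 library left out, 22 with DESeq2 (4 of them among the 11, the other 7 being left without an adjusted p) and 110 with no filter beyond 1 UMI. With libraries of the same number treated as a replicate block it called 21, all 11 included, although it is not known whether the numbers pair libraries. The correlation of the deviations of shNC 1 and shSELP 1 from their group means was 0.0751 over 6936 genes, which cannot settle how the libraries were prepared. Leaving out cells over 10% mitochondrial counts removed no cell and so changed nothing. CD8 against conventional CD4 T cells gave 906 genes, 476 with DESeq2 and 395 with cells thinned to 2000 UMIs. CD8 against NK cells gave 612, 407 with DESeq2, 315 with thinned cells and 401 to 660 with 1 library left out. CD8 against cycling CD8 T cells gave 1350, 536 with DESeq2, 283 with thinned cells and 857 to 1415 with 1 library left out. Gzmb against Tcf7 CD8 T cells gave 46, 15 with DESeq2, 187 with no filter, 129 with no thinning and 22 to 50 with 1 library left out. The response of CD8 against response of conventional CD4 T cells gave 2, 4 with DESeq2, 21 with no filter and 0 to 41 with 1 library left out. The difference in the share of CD8 T cells among T cells ran from −11.9 to 15.7 points with 1 library left out and was −0.983 with the selection made after thinning, and among all cells it ran from −2.21 to 2.41. Some log2 fold changes changed sign. With 1 library left out, Gzmb in shSELP against shNC in CD8 T cells ran from −0.23 to +0.0274, Klrd1 in shSELP against shNC in CD8 T cells from −0.12 to +0.0445, Prf1 in shSELP against shNC in CD8 T cells from −0.62 to +0.46 and Xcl1 in shSELP against shNC in CD8 T cells from −2.65 to +0.38. There Klrd1 became +0.0648 with thinned cells and Cst3 −0.11 with the selection after thinning. Trbc2 in CD8 against conventional CD4 T cells ran from −0.0427 to +0.20, Klrd1 in CD8 against NK cells from −0.19 to +0.12 (+0.15 with no filter) and Trbc1 in CD8 against NK cells from −0.0843 to +0.39. Prf1 in CD8 against cycling CD8 T cells ran from −0.0763 to +0.29 and Pdcd1 in CD8 against cycling CD8 T cells from −0.0183 to +0.16, with −0.12 in thinned cells, where Gzmb in CD8 against cycling CD8 T cells became −0.0153. Selplg in Gzmb against Tcf7 CD8 T cells ran from −0.18 to +0.28, with +0.75 under no filter and +0.61 under no thinning, and Apoe in Gzmb against Tcf7 CD8 T cells from −2.17 to +0.12. No filter also gave +0.0550 for Fth1, +0.22 for Rplp1, +0.23 for Rps19, +0.24 for Rps27a and +0.26 for Rps20. Klrd1 in response of CD8 against response of conventional CD4 T cells ran from −0.18 to +0.31 and Prf1 in response of CD8 against response of conventional CD4 T cells from −0.38 to +3.16. The cause of these moves was not tested. Of 1851 alternative values of single genes, 31 changed sign, 107 were stronger, 114 weaker and 1599 similar.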

Other observations

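In the separate CD11b+ experiment, whose description lines do not all give the same group as the titles used here, 5 of 2731 cells in shNC (0.183%, 0.0595% to 0.427%, exact 95% binomial interval) and 3 of 2804 cells in shSELP (0.107%, 0.0221% to 0.312%) met the conditions for the CD8 T cells with Foxp3 left out of them. Pairs of genes within thinned members were chosen after values were seen: a Prf1 UMI was found in 33.9% of cells with a Gzmb UMI and 18.1% of cells without, and a Lag3 UMI in 24.7% of cells with a Pdcd1 UMI and 21.3% of cells without, the other way round in shSELP 2 (24.0% and 27.8%). H19, an imprinted non-coding RNA, had 12.8, 20.2, 1.78 and 2.28 CPM in the members and 14.1, 8.37, 1.87 and 2.51 CPM in the macrophage-like cells.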
